A study of Saccharomyces cerevisiae with 27 samples.

Results

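The comparison described here sets yeast cells that carry H4-S47D against wild-type (WT) cells, both growing without stress. The S47D allele swaps the serine at position 47 of histone H4 for an aspartic acid, a charged residue used to mimic phosphorylation. Samples were chosen by their labels, as the 3 H4-S47D libraries without stress and the 3 WT libraries without stress, which make 6 of the 27 libraries of the study. All 6746 genes counted in the study were taken, and 6209 of them passed the filter on low counts and were tested. The other 21 libraries hold the H4-T30A and H4-T30D strains and the stressed cells. Poly(A) RNA was sequenced from log-phase cultures in YPD, a rich glucose medium, at 30°C.

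By the labels, each strain derives from BY4741, a MATa laboratory strain, and carries his3Δ200, leu2Δ0, lys2Δ0, trp1Δ63, ura3Δ0, met15Δ0 and can1::MFA1pr-HIS3. In each of them the HHT1-HHF1 pair of histone H3 and H4 genes is replaced by NatMX4, and HHT2-HHF2 by a copy named HHTS-HHFS next to URA3, so that this copy is the only source of H3 and H4. That copy holds the S47D allele in H4-S47D cells and the WT allele in WT cells, and the labels name no other difference between them. The methods of the study speak of separate wild types for S47 and for T30, whereas the labels name a single H4 WT. The labels give no sequencing run or date, so strain and run cannot be told apart, and the number of clones behind each strain is not given in the sources used here. The methods call the replicates biological.

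Histone H4 forms a tetramer with H3 at the centre of the nucleosome, around which DNA is wrapped, and dimers of H2A and H2B complete the particle. Serine 47 lies in the folded part of H4, outside its tail. In yeast, nucleosomes keep many stress and nutrient genes low in rich glucose medium, and the general stress response raises such genes while lowering those that build ribosomes. The residue is shown in the native gene as 45 bases of HHF2, with the serine codon in capitals, at chrXIV:576847-576891 on the plus strand of the R64 assembly. HHF1 holds the same 45 bases at chrII:255520-255564 on the minus strand.
HHF2: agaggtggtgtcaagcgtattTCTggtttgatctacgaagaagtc
The counts do not show which codon the libraries carried there.

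The counts summed to 16661174 to 19048214 per H4-S47D library and 14662715 to 18237189 per WT library. Values are given as CPM, counts relative to a library size scaled by edgeR's TMM method, which are not divided by gene length and therefore serve to compare libraries, not genes. Each fold change is a log2 value of H4-S47D minus WT with its standard error (SE), from edgeR's quasi-likelihood test on all 27 libraries, and a gene is called at a Benjamini-Hochberg adjusted p under 0.05. Replicates differed by more than counting error, with a chi-square statistic of 9.98 to 37.8 times its degrees of freedom. A gene's CPM ranges count as not overlapping when all 3 libraries of one strain lie above all 3 of the other, which held for 47.4% of the genes tested.

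Without stress, 1654 genes were higher in H4-S47D cells (26.6% of those tested) and 1571 were lower (25.3%). These shares are the background for each list count below. Past a 2-fold change there were 488 higher genes (7.86%) and 39 lower genes (0.628%), and past a 4-fold change 192 higher genes and 2 lower genes. The median over all genes tested was 0.002 on the log2 scale. Scaling by library totals moved that median to 0.181 and the calls to 2323 higher and 670 lower genes, so lower calls hold relative to the bulk of genes. A fit to the 6 libraries alone called 1191 higher and 922 lower genes.

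Calls were also counted by expression level. Genes were split into 5 bins of near-equal size by their mean in the unstressed H4-T30A libraries, which enter neither group. In the lowest bin 576 of 1242 genes were higher in H4-S47D cells and 54 were lower, and 382 of the 488 genes higher by over 2-fold were there. That bin spans 0 to 9.27 CPM in H4-T30A, so its genes have little room to fall. The low-count filter used all 27 libraries, so a gene this low could pass through the H4-S47D libraries themselves. The excess of higher calls in this bin cannot be separated from these 2 limits. In the highest bin 192 of 1242 were higher and 606 lower. The median log2 fold change was 0.54 in the lowest bin and -0.19 in the highest. Genes with at least 1 count numbered 6521 to 6543 per H4-S47D library and 6395 to 6443 per WT library.

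**Figure D1:**
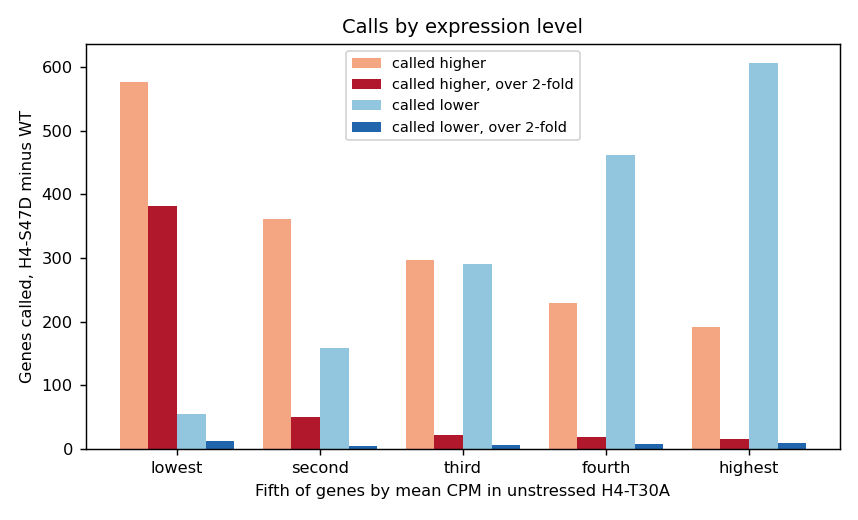
The bars give the number of genes called higher or lower in H4-S47D cells than in WT cells without stress, and the number past a 2-fold change, for 5 bins of genes ordered by mean CPM in unstressed H4-T30A cells. The lowest bin holds 576 higher and 54 lower genes, and the highest bin 192 higher and 606 lower genes. Genes of the lowest bin have little room to fall and could pass the low-count filter through the H4-S47D libraries.

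Selection markers separated the strains beyond the histone allele. TRP1, which encodes an enzyme of tryptophan synthesis (chrIV:461842-462516, plus strand), was at 290, 320 and 274 CPM in H4-S47D cells, against 1.24, 1.58 and 2.33 CPM in WT cells (log2 fold change 7.47, SE 0.25, adjusted p = 2.02e-20). The labels give trp1Δ63 for H4-S47D cells as for WT cells, and the TRP1 counts of the H4-S47D libraries go against that label. YDR008C, an identifier that the reference annotation used here does not hold, was at 13.1, 18.1 and 14.9 CPM in H4-S47D cells, against 0, 0.121 and 0 CPM in WT cells. URA3, which encodes an enzyme of uracil synthesis and stands beside the histone copy in every strain, was at 511, 563 and 538 CPM in H4-S47D cells and at 112, 132 and 112 CPM in WT cells (2.18, SE 0.08, adjusted p = 7.7e-20). Neither TRP1 nor URA3 had a library of one strain within the range of the other. In the other mutants without stress TRP1 averaged 1.49 CPM (H4-T30A) and 2.47 CPM (H4-T30D), and URA3 averaged 110.5 CPM (H4-T30A) and 124 CPM (H4-T30D). HIS3, the marker driven by the MFA1 promoter, averaged 224 ± 37.7 CPM in H4-S47D cells and 338 ± 24.7 CPM in WT cells (SD, n = 3 each; -0.59, adjusted p = 2.24e-05). HIS3 was lower still in unstressed H4-T30D, at 181.7 CPM (-0.89 against WT, adjusted p = 1.57e-07), and averaged 301.3 CPM in unstressed H4-T30A. Its fall was thus not particular to H4-S47D. LEU2, LYS2, MET17 and CAN1, which the labels give as deleted or disrupted, stayed under 1.2 CPM in all 6 libraries. The part of these marker differences in the other results was not tested, and the marker state and the histone allele cannot be told apart by design.

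**Figure D2:**
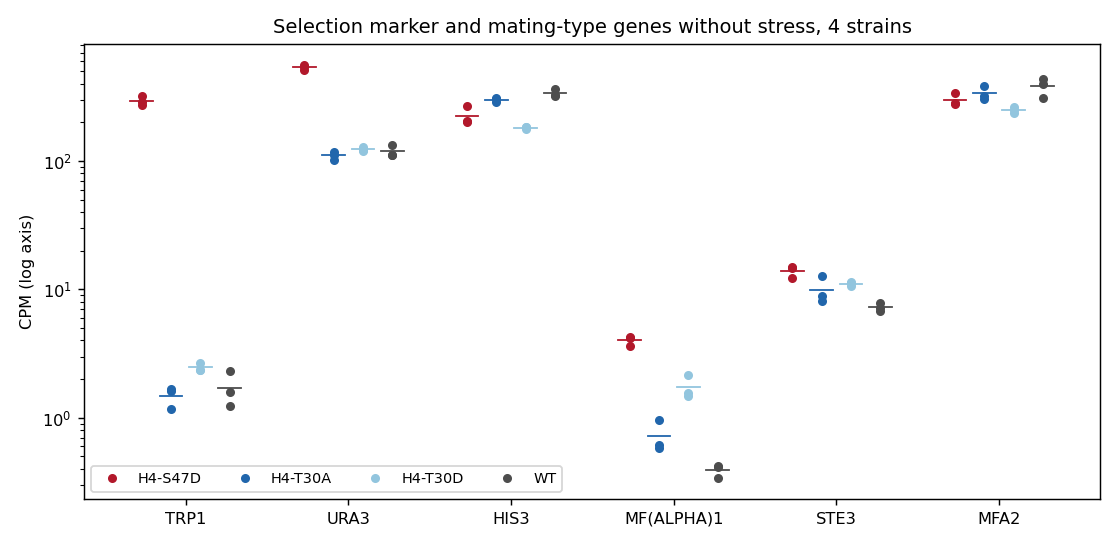
Points give the CPM of each of the 3 unstressed libraries of 4 strains on a log axis, with a bar at the mean, for 3 marker genes and 3 mating-type genes. TRP1 is at 274 to 320 CPM in the H4-S47D libraries and under 3 CPM in all others, and URA3 is at 511 to 563 CPM in H4-S47D and under 133 CPM in the rest.

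Mating-type genes were checked because the strains are labelled MATa. The α-specific genes, which MATa cells normally keep silent, were higher in H4-S47D cells for 4 of 4 members, and their summed level was 98.7 to 125 CPM in H4-S47D libraries and 51.6 to 63.8 CPM in WT libraries. MF(ALPHA)1, which encodes the α-factor pheromone, was at 4.29, 4.22 and 3.65 CPM in H4-S47D cells, against 0.338, 0.425 and 0.416 CPM in WT cells (3.35, SE 0.33, adjusted p = 8.88e-10). MF(ALPHA)2, the second α-factor gene, averaged 8.86 ± 0.69 CPM in H4-S47D cells and 1.85 ± 0.25 CPM in WT cells, and STE3, the receptor for a-factor, 14.0 ± 1.4 CPM in H4-S47D cells and 7.27 ± 0.51 CPM in WT cells (SD, n = 3 each). Of 7 a-specific genes, which MATa cells express, 4 were lower and none higher, with a summed level of 1557 to 1693 CPM in H4-S47D libraries and 2046 to 2103 CPM in WT libraries. Among the lower genes STE2 and MFA2 lost their calls with library totals and with a replicate block on the 6 libraries. MFA2 also lost its call in edgeR's fit to the 6 libraries and without WT replicate 2. AGA2, the binding subunit of a-agglutinin, averaged 65.6 ± 3.9 CPM in H4-S47D cells and 132 ± 19.8 CPM in WT cells (-1.01, adjusted p = 9.79e-10), while BAR1, a protease that degrades α-factor, averaged 411 ± 23.2 CPM in H4-S47D cells and 419 ± 21.5 CPM in WT cells (adjusted p = 0.768). In unstressed H4-T30D cells AGA2 averaged 63.71 CPM (-1.052 against the same WT libraries, adjusted p = 2.91e-09). It averaged 138.4 CPM in unstressed H4-T30A cells. MF(ALPHA)1 and MF(ALPHA)2 averaged 1.724 and 4.161 CPM in H4-T30D cells (adjusted p = 6.9e-05 each against WT), under their H4-S47D levels. The fall of AGA2 and the rise of the α-factor genes were thus not particular to H4-S47D. Pheromone pathway genes included FUS3, the mating MAP kinase (-0.90, adjusted p = 1.3e-10), and AGA1, the anchor subunit of a-agglutinin (-0.89, adjusted p = 1.13e-07), among 9 lower and 2 higher of 26, against a background of 25.3% lower. With library totals, and with a replicate block on the 6 libraries, 5 of the 26 were lower.

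Of 11 histone genes 5 were lower in H4-S47D cells (45.5%, beside 25.3% of all genes) and none higher, and all 5 encode H2A, H2B or H2A.Z. HTA2, one of the H2A genes, was at 270, 262 and 274 CPM in H4-S47D cells, against 512, 559 and 583 CPM in WT cells (-1.04, SE 0.08, adjusted p = 1.67e-12). HTB1 and HTB2, both encoding H2B, fell by 0.81 and 0.78 on the log2 scale, and HTA1, the other H2A gene, by 0.66, each with no overlap between the strains. HTZ1, which encodes the H2A.Z variant, averaged 59.3 CPM in H4-S47D cells and 70.2 CPM in WT cells (-0.24, adjusted p = 0.0114), a call that was lost under upper-quartile or library-total scaling, without H4-S47D replicate 1 and in the fits to the 6 libraries. No H3 or H4 gene was called with all libraries in the fit, but without H4-S47D replicate 2 HHT1 was called lower (-0.38, adjusted p = 0.00575) and HHF1 higher (0.43, adjusted p = 0.0366). HHF1 was also called with library totals (0.475, adjusted p = 0.0365). HHT1 averaged 122 ± 34.9 CPM in H4-S47D cells and 133 ± 2.1 CPM in WT cells, HHT2 averaged 150 ± 31.3 CPM in H4-S47D cells and 160 ± 22.6 CPM in WT cells, HHF1 averaged 38.6 ± 9.9 CPM in H4-S47D cells and 32.4 ± 9.62 CPM in WT cells, and HHF2 stayed under 0.63 CPM in all 6 libraries. The labels give all 4 of these native genes as replaced, and which reads of the HHTS-HHFS copy were counted under them was not tested. HHO1, the linker histone, and CSE4, the centromeric H3 variant, were not called (adjusted p = 0.653 and 0.866). Of 33 genes for H3-H4 chaperones and chromatin factors 12 were lower (36.4%, beside 25.3% of all genes) and 2 higher (6.06%, beside 26.6%). Among the lower ones were NAP1, an H2A-H2B chaperone, with 143 ± 33.9 CPM in H4-S47D cells and 267 ± 52.5 CPM in WT cells (-0.90), and MSI1, a subunit of chromatin assembly factor CAF-1 (-0.80). The count of lower genes was 7 with library totals, 19 with DESeq2's size factors and 5 with a replicate block on the 6 libraries.

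General stress genes stood higher in unstressed H4-S47D cells. Of 42 genes of the type driven by Msn2 and Msn4, the zinc finger activators of the general stress response, 38 rose and none fell, 26 of them past 2-fold, with a median log2 fold change of 1.20 against 0.002 over all genes. HSP12, which encodes a small membrane-stabilising heat shock protein, was at 107, 106 and 110 CPM in H4-S47D cells, against 9.92, 13.1 and 11.5 CPM in WT cells (3.23, SE 0.10, adjusted p = 7e-21). DDR2, a stress-induced gene of unknown molecular function, was at 23.7, 25.7 and 21.4 CPM in H4-S47D cells, against 1.75, 2.97 and 2.25 CPM in WT cells (3.34, SE 0.15, adjusted p = 3.87e-17). MOH1, a gene linked to survival in stationary phase, was at 25.1, 27.4 and 22.8 CPM in H4-S47D cells, against 1.92, 2.12 and 2.33 CPM in WT cells (3.57). In all 3 genes every H4-S47D library lay above every WT library. These 3 were named as the largest called rises of their list. MOH1 is also among the 15 largest rises, for which that separation was a condition of choice. Of the activators and regulators themselves, MSN4 rose by 0.96 (SE 0.07) and XBP1, a stress-induced repressor, by 1.65 (SE 0.14), while MIG1 and MIG3, glucose-dependent repressors, fell by 0.58 and 0.75, within a list of 35 in which 12 rose and 6 fell (3 fell with library totals). The 12 and 6 are 34.3% and 17.1%, beside 26.6% and 25.3% of all genes.

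Msn2 and Msn4 bind the stress response element, searched here as AGGGG on both strands in the 250 bases before the start codon. The element was present in 29.5% of 376 protein-coding genes higher by over 2-fold, in 14.1% of 1551 lower genes and in 19.0% of all 5801 promoters of genes tested. With 2 or more elements 67 of 128 genes were higher and 19 lower, against 1111 higher and 1333 lower of 4698 with none. A stretch of 150 bases that begins 250 bases before the start codon is printed for DDR2 and for HSP12, because both carry several elements, from the R64 assembly with the element (read here on the opposite strand, as CCCCT) in capitals. They lie at chrXV:231856-232005, minus strand, for DDR2, and at chrVI:107006-107155, plus strand, for HSP12.
DDR2: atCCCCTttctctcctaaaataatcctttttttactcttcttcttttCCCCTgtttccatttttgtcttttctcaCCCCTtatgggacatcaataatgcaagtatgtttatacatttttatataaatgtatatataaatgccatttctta
HSP12: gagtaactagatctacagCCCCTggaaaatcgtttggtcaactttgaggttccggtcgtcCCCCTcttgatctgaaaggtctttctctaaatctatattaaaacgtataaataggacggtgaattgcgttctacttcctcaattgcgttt
The heat shock element GAANNTTC was in 7.45% of the genes higher by over 2-fold, in 10.8% of the lower genes and in 10.1% of all. A match describes the letters in this window and does not show that a factor binds there.

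Heat shock genes were counted in 2 lists. Among small heat shock proteins and the disaggregase, 11 of 12 were higher and none lower, 9 past 2-fold. HSP26, a holdase that forms large oligomers, was at 198, 188 and 189 CPM in H4-S47D cells, against 25.3, 30.8 and 25.7 CPM in WT cells (2.81, SE 0.10). Among 23 Hsp70, Hsp90 and cochaperone genes 6 rose (26.1%, beside 26.6% of all genes) and 8 fell (34.8%, beside 25.3%). The stress-inducible Hsp70 genes SSA3 and SSA4 rose, SSA3 by 2.34 (SE 0.08) and SSA4 to 139 ± 7.64 CPM in H4-S47D cells, against 48.9 ± 3.85 CPM in WT cells, and HSP82, the inducible Hsp90 gene, averaged 416 ± 10.5 CPM in H4-S47D cells and 184 ± 12.0 CPM in WT cells (SD, n = 3 each; 1.18). Of the 8 lower members the 3 with the largest change, all of which act on nascent chains at the ribosome, were ZUO1 at -0.71 (SE 0.09), SSB1 at -0.50 (SE 0.15) and SSZ1 at -0.44 (SE 0.07). The SSB1 call was lost without WT replicate 3 and in edgeR's fit to the 6 libraries, and the count of lower members ran between 1 (replicate block, 6 libraries) and 13 (DESeq2, all libraries). KAR2, the Hsp70 of the endoplasmic reticulum, rose by 0.72 (SE 0.09), in a list of 26 secretory genes with 5 higher and 4 lower, which is under the background of 26.6% and 25.3%. The count of higher secretory genes was 2 without H4-S47D replicate 1, 3 without H4-S47D replicate 3, WT replicate 2 or WT replicate 3, and 10 with library totals.

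The study followed the osmostress response after salt. It also compared the unstressed strains and reported raised expression in H4-S47D cells. Few genes were repressed there, at a false discovery rate under 0.05 and a 2-fold limit. The osmostress genes were read here without salt. STL1, a glycerol importer, was at 6.15, 5.63 and 4.33 CPM in H4-S47D cells, against 0.958, 1.21 and 1.83 CPM in WT cells, with no overlap, but was not called in the fit to all libraries (2.05, SE 1.02, adjusted p = 0.0939). The fit of edgeR to the 6 libraries alone called it (adjusted p = 0.000163). ALD3, an aldehyde dehydrogenase, and CTT1, the cytosolic catalase, rose by 0.69 (SE 0.09) and 0.58 (SE 0.10). GPD1 and GPP2, which make glycerol, rose by 0.90 and 0.99, whereas GPD2, the redox-linked isoenzyme, and FPS1, the glycerol channel, fell by 0.48 and 0.36. DAK2, a dihydroxyacetone kinase, had the highest fold change of the 14 glycerol genes, with 16.1, 20.2 and 18.2 CPM in H4-S47D cells and 1.13, 1.27 and 1.42 CPM in WT cells (3.85, SE 0.22). Of the glycerol list 5 were higher (35.7%) and 4 lower (28.6%), beside 26.6% and 25.3% of all genes, and FPS1 lost its call with library totals.

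Of 28 genes of the HOG pathway, the PAK kinases and Cdc42, 7 were higher and 6 lower, near the background in both directions. STE20, a PAK kinase, was at -0.39 (SE 0.07, adjusted p = 2.48e-05), CLA4, the second PAK kinase, at -0.23 (SE 0.09, adjusted p = 0.0272), and SKM1, the third, at 0.35 (SE 0.10, adjusted p = 0.0049). STE11, a MAP kinase kinase kinase, was at 0.24 (SE 0.08, adjusted p = 0.0101) and HOG1, the osmostress MAP kinase, at 0.12 (SE 0.07, adjusted p = 0.138). Alternatives ended several of these small calls. CLA4, SKM1 and STE11 lost theirs in the fits to the 6 libraries, where 3 members of the list were higher. CLA4 also lost its call with upper-quartile scaling, without H4-S47D replicate 3 (-0.18) and without WT replicate 1 (-0.12), and STE11 without H4-S47D replicate 3 (0.18). With library totals no member was called lower and HOG1 was called higher (adjusted p = 4.89e-05), as it was with upper-quartile scaling (adjusted p = 0.0136). After 15 min in 0.4 M NaCl, HSP12 averaged 3779 CPM in H4-S47D cells and 4256 CPM in WT cells, and DDR2 457 CPM in H4-S47D cells and 535 CPM in WT cells, so the unstressed levels of both genes lay far under their salt levels in both strains.

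**Figure D3:**
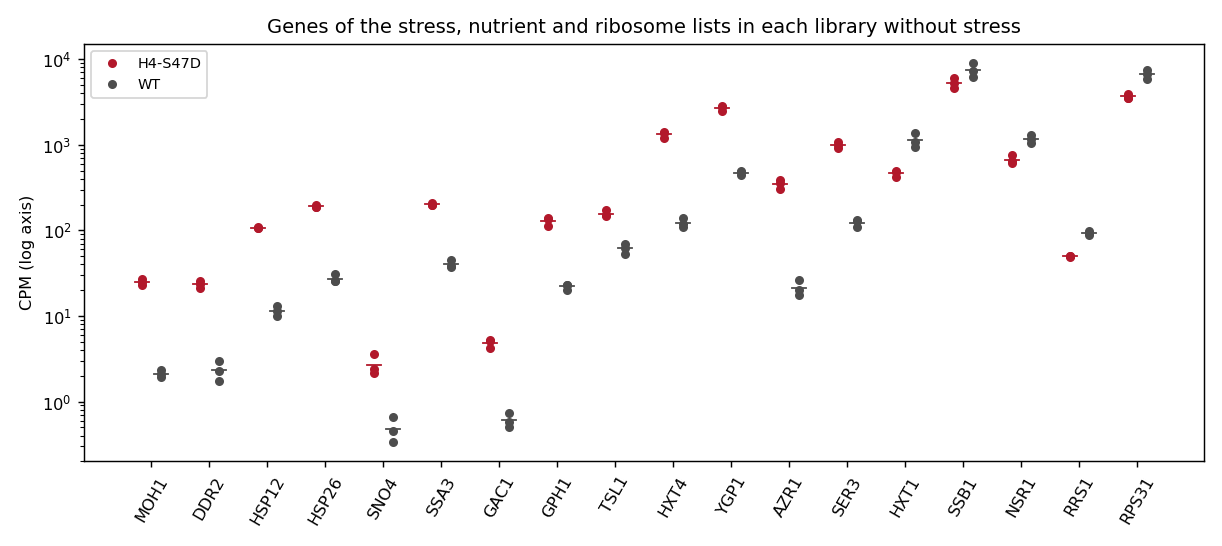
Points give the CPM of each library without stress on a log axis for 18 genes of the stress, nutrient and ribosome lists, H4-S47D left and WT right, with a bar at the mean. The first 13 genes lie higher in every H4-S47D library than in any WT library, for example HXT4 at 1209 to 1426 CPM in H4-S47D and 108 to 139 CPM in WT, and the last 5 lie lower. The genes were picked for display. For MOH1, HXT4, AZR1 and HXT1 ranges that do not overlap were a condition of choice, and 47.4% of all genes tested had such ranges.

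Storage carbohydrate genes were higher as well. Of 10 trehalose genes 9 rose and of 13 glycogen genes 10 rose and 1 fell, with median log2 fold changes of 0.65 and 1.22. Over all genes tested 26.6% were higher and 25.3% lower. GPH1, glycogen phosphorylase, was at 136, 140 and 114 CPM in H4-S47D cells, against 20.2, 23.2 and 23.2 CPM in WT cells (2.55, SE 0.09). GLC3, the branching enzyme, rose by 1.90 (SE 0.08) and GAC1, a phosphatase subunit that activates glycogen synthase, by 2.98 (SE 0.21). TSL1, a regulatory subunit of trehalose synthase, averaged 157 ± 12.4 CPM in H4-S47D cells and 61.9 ± 8.5 CPM in WT cells (1.35), and NTH2, a trehalase, rose by 1.11 (SE 0.08). Both synthesis and breakdown are thus among the higher members.

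Hexose uptake genes moved in both directions. Of 24 hexose transporters, hexokinases and their regulators 16 were higher, all 16 past 2-fold, and 3 were lower, and the median was 1.72. The shares over all genes were 26.6% higher, 7.86% higher past 2-fold and 25.3% lower. HXT4, a high-affinity glucose transporter (chrVIII:287081-288811, minus strand), was at 1388, 1426 and 1209 CPM in H4-S47D cells, against 108, 118 and 139 CPM in WT cells (3.47, SE 0.10, adjusted p = 4.61e-22). HXT1, the low-affinity transporter used at high glucose and its neighbour on the same chromosome (chrVIII:290913-292625), was at 484, 500 and 425 CPM in H4-S47D cells, against 1065, 942 and 1377 CPM in WT cells (-1.26, SE 0.20, adjusted p = 3.58e-06). HXK2, the main hexokinase on glucose, was at -0.26 (adjusted p = 0.0225), a call lost under upper-quartile and library-total scaling, without any one of 3 libraries (H4-S47D replicates 1 and 3, WT replicate 3) and in the fits to the 6 libraries. The transporters are close copies of each other, and reads that map to several places were not counted.

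Genes of gluconeogenesis, respiration and fatty acid oxidation, many of which glucose represses, were mostly higher. Of 19 gluconeogenesis, glyoxylate and acetate genes 15 rose and 2 fell, beside 26.6% and 25.3% of all genes. FBP1, fructose-1,6-bisphosphatase, averaged 12.9 ± 1.1 CPM in H4-S47D cells and 1.81 ± 0.34 CPM in WT cells (2.81, SE 0.18), and MLS1, malate synthase, and SIP4, an activator of gluconeogenic genes, rose by 2.86 and 2.80. Of 18 TCA cycle genes 10 rose (16 with library totals) and none fell, led by the succinate dehydrogenase genes SDH4, SDH2 and SDH1 (0.96, 0.90 and 0.89). Of 40 respiratory chain and ATP synthase genes 28 rose and 1 fell, with a median of 0.29 and 3 past 2-fold, and the count of higher genes ran from 15 to 33 over the alternatives. COX26, a small subunit of cytochrome c oxidase, was at 4.17, 4.16 and 4.28 CPM in H4-S47D cells, against 0.394, 0.546 and 0.25 CPM in WT cells (3.33, SE 0.25). Of 15 genes of fatty acid oxidation in peroxisomes 11 rose (7 to 13 over the alternatives) and none fell, and POT1, the thiolase of that pathway, was at 12.1, 14.4 and 12.3 CPM in H4-S47D cells, against 0.282, 0.364 and 0.666 CPM in WT cells (4.94, SE 0.23, adjusted p = 7.62e-17).

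Of 25 glycolysis and fermentation genes 9 were higher (36.0%) and 7 lower (28.0%), beside 26.6% and 25.3% of all genes. ENO1, an enolase, averaged 6779 ± 1040 CPM in H4-S47D cells and 3213 ± 712 CPM in WT cells (1.08, SE 0.12), and PDC6, a minor pyruvate decarboxylase, averaged 65.6 ± 8.77 CPM in H4-S47D cells and 9.49 ± 0.63 CPM in WT cells (2.78, SE 0.09). ADH1, the main alcohol dehydrogenase of fermentation, was at -0.36 (SE 0.12, adjusted p = 0.00953) with overlapping ranges, and its call was lost without H4-S47D replicate 1, without WT replicate 3 and in edgeR's fit to the 6 libraries. The number of lower members was 4 without H4-S47D replicate 1, without H4-S47D replicate 3 or without WT replicate 3, 3 with library totals, 2 in edgeR's fit to the 6 libraries and 0 with a replicate block in that fit.

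**Figure D4:**
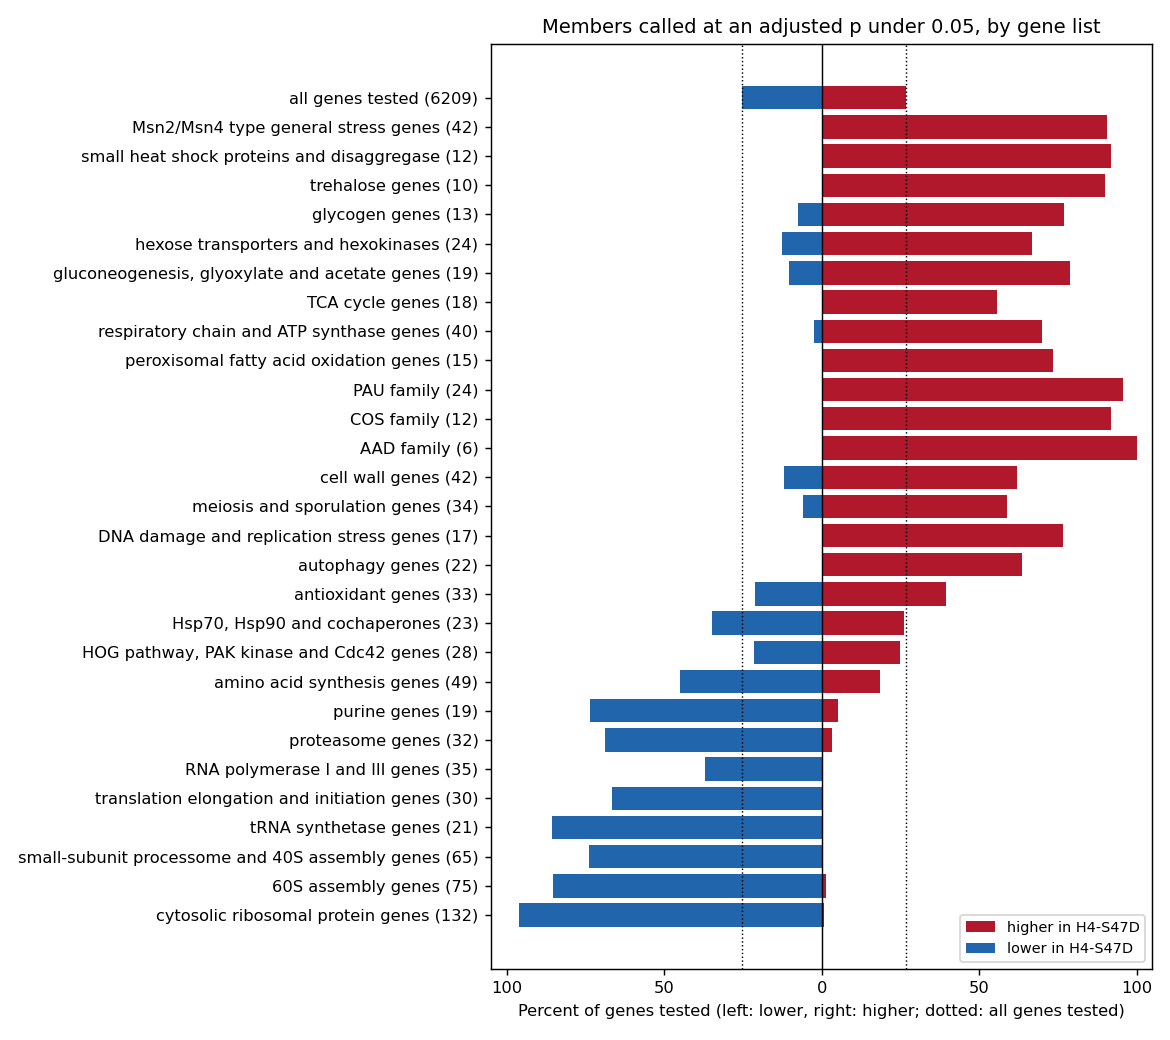
Bars give the percent of tested members of each list called higher (right) or lower (left) in H4-S47D than in WT cells at an adjusted p under 0.05, with the number of tested members in brackets. Dotted lines mark the shares over all genes, 26.6% higher and 25.3% lower.

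With TMM scaling, genes that build and run the ribosome were mostly lower, except those of RNA polymerases I and III (13 of 35 lower). Among the 6 lists of this kind EFB1 was the 1 member that fell past 2-fold. Beside 25.3% lower and 26.6% higher of all genes, 127 of 132 cytosolic ribosomal protein genes fell and 1 rose, with a median of -0.54. Their share of all counts was 16.5 to 17.3% in H4-S47D libraries and 21.4 to 22.9% in WT libraries. It was 21.6 to 22.5% in H4-T30A and 18.2 to 18.3% in H4-T30D libraries without stress. RPS31, which encodes a ubiquitin fusion of the small subunit, was at 3486, 3966 and 3546 CPM in H4-S47D cells, against 5833, 6715 and 7566 CPM in WT cells (-0.87, SE 0.10, adjusted p = 2.19e-08), and RPL43A of the large subunit fell by 0.90 (SE 0.10). The 1 higher member was RPS9A, a minor copy of its protein's gene pair, at 258 ± 21.8 CPM in H4-S47D cells and 177 ± 16.4 CPM in WT cells (0.54, SE 0.09).

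Ribosome assembly genes were lower as well. Of 65 small-subunit processome and 40S assembly genes 48 fell and none rose (median -0.41), and of 75 genes of 60S assembly 64 fell and 1 rose (median -0.47). RRS1, needed for assembly of the large subunit, was at 49.2, 50.1 and 49.8 CPM in H4-S47D cells, against 88.8, 97.3 and 93.9 CPM in WT cells (-0.91, SE 0.11, adjusted p = 3.89e-08). NSR1, yeast nucleolin, averaged 667 ± 75.7 CPM in H4-S47D cells and 1168 ± 139 CPM in WT cells (-0.81). NOP7, of pre-60S particles, was at 148, 135 and 162 CPM in H4-S47D cells, against 278, 274 and 234 CPM in WT cells (-0.82, SE 0.16). BUD22, of the small-subunit pathway, varied more, with 13.1, 10.2 and 18.3 CPM in H4-S47D cells and 31.1, 31.7 and 19.7 CPM in WT cells (adjusted p = 3.66e-05). Of 30 translation elongation and initiation genes 20 fell and none rose, led by EFB1, elongation factor 1B, at 796, 946 and 817 CPM in H4-S47D cells, against 1928, 1989 and 1807 CPM in WT cells (-1.16, SE 0.09); a small nucleolar RNA gene overlaps EFB1. Of 21 tRNA synthetase genes 18 fell, and of 35 genes of RNA polymerases I and III 13 fell (37.1%, beside 25.3% of all genes), with none higher in either list. The lower counts depended on the setting. With library totals they were 15 for 40S assembly, 22 for 60S assembly, 12 for translation, 8 for tRNA synthetases and 4 for the polymerases. With a replicate block on the 6 libraries they were 25, 35, 9, 4 and 7 in the same order, and the ribosomal protein count was 81.

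A pair of short elements is known from promoters of ribosome assembly genes, PAC (searched as GATGAG) and RRPE (searched by its core, AAAATTTT, which is its own reverse complement), both in the 250 bases before the start codon and on both strands. PAC was in 25.8% of lower genes, 12.2% of higher genes and 16.9% of all promoters, and the RRPE core in 17.7% of lower genes, 3.24% of higher genes and 8.79% of all. In the 33 promoters of genes lower by over 2-fold, PAC was in 15.2% and the RRPE core in 6.06%, both under the shares of all promoters. Of 145 genes with 2 or more PAC matches, 90 were lower and 8 higher. The windows of NOP7 (chrVII:695167-695316, plus strand) and RRS1 (chrXV:868090-868239, plus strand) are printed in the same way, as both hold the core followed by PAC repeats, with the matches in capitals. Neighbouring PAC matches share a base.
NOP7: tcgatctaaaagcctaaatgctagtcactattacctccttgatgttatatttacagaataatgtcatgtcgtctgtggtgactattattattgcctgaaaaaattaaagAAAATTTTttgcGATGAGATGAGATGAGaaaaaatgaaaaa
RRS1: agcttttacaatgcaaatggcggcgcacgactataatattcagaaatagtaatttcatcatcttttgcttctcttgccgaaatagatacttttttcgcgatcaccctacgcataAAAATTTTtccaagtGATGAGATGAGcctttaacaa
The Gcn4 site TGACTC, known from amino acid synthesis genes, was in 5.85% of genes higher by over 2-fold, 5.87% of lower genes and 6.33% of all.

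Of 49 amino acid synthesis genes 22 were lower and 9 higher, and of 19 purine genes 14 were lower and 1 higher. Over all genes 25.3% were lower and 26.6% higher. ADE17, of the last steps of purine synthesis, averaged 99.4 ± 9.2 CPM in H4-S47D cells and 211 ± 17.3 CPM in WT cells (-1.09, SE 0.08). The member of the amino acid list with the highest fold change was SER3, which makes serine from glycolytic intermediates (chrV:322686-324095, plus strand), at 1002, 1067 and 905 CPM in H4-S47D cells, against 129, 109 and 132 CPM in WT cells (3.01, SE 0.08, adjusted p = 4.61e-22). A noncoding RNA gene on the same strand overlaps SER3. MET6, methionine synthase, averaged 623 ± 36.7 CPM in H4-S47D cells and 228 ± 11.8 CPM in WT cells (1.45), and SUL1, a sulfate permease, rose by 3.29 (SE 0.23), in a list of 24 with 12 higher (7 to 16 over the alternatives) and 5 lower (2 to 5). Tryptophan genes, of interest because of TRP1, were mixed with 7 of 20 higher (35.0%), TRP1 included, and 5 lower (25.0%, near the share over all genes). With library totals 3 were lower. Of 32 proteasome genes 22 were lower and 1 higher, and that one was RPN4, the activator of proteasome genes (0.62, SE 0.06). With library totals the lower counts were 12 for amino acids, 9 for purines and 6 for the proteasome, and in edgeR's fit to the 6 libraries 13, 8 and 10. With a replicate block on those 6 they were 6, 8 and 4.

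Most cell wall genes and membrane exporters were higher. Of 42 cell wall genes 26 rose and 5 fell (2 with library totals), beside 26.6% and 25.3% of all genes. YGP1, a secreted glycoprotein made when nutrients run low, was at 2810, 2743 and 2480 CPM in H4-S47D cells, against 488, 441 and 482 CPM in WT cells (2.51, SE 0.09, adjusted p = 8.15e-20), and PIR3 and GSC2, an O-glycosylated wall protein and a glucan synthase subunit, rose by 2.11 and 1.64. PIR1, a paralogue of PIR3, fell by 0.53 (SE 0.09). Of 24 drug and acid exporters 15 rose and 3 fell, with QDR2 lower at 135 ± 17.1 CPM in H4-S47D cells and 273 ± 49.8 CPM in WT cells (-1.01). AZR1, a transporter linked to azole resistance, rose by 4.05 (SE 0.12). It was also high against the same WT libraries in the other mutants, at 2.31 in H4-T30A and 3.50 in H4-T30D, and these comparisons share their WT libraries.

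DNA damage and meiotic genes also included higher members. Of 17 DNA damage and replication stress genes 13 rose and none fell, beside 26.6% and 25.3% of all genes. With a replicate block on the 6 libraries 6 of them rose. DDI2 (chrXIV:11452-12129) and DDI3 (chrVI:9545-10222), which encode a cyanamide hydratase, are near-identical copies, so the split of reads between them is uncertain. DDI2 was at 26.4, 31.3 and 29.1 CPM in H4-S47D cells, against 0.507, 0.425 and 0.583 CPM in WT cells (5.84, SE 0.23), and DDI3 gave nearly the same values. HUG1, an inhibitor of ribonucleotide reductase, averaged 83.7 ± 3.6 CPM in H4-S47D cells and 23.3 ± 5.2 CPM in WT cells (1.85). Of 34 meiosis and sporulation genes 20 rose and 2 fell, at low levels that summed to 215 to 219 CPM in H4-S47D libraries and 109 to 112 CPM in WT libraries. IME1, the master activator of meiosis, was at 3.54, 2.42 and 2.24 CPM in H4-S47D cells, against 6.76, 3.64 and 4.33 CPM in WT cells, and so was lower (-0.87, SE 0.21, adjusted p = 0.00122). NDT80, the activator of middle meiotic genes, was not called (adjusted p = 0.165).

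Calls were also counted by distance from a chromosome end. Under 10 kb from a chromosome end 82 of 113 genes were higher and 1 lower, with a median of 0.82, and from 10 to 20 kb 81 of 122 were higher and 8 lower, with a median of 0.74. From 20 to 50 kb 160 of 437 were higher and 97 lower, and beyond 50 kb 1205 of 5164 were higher and 1451 lower, with medians of 0.05 and -0.03. Families with many members near the ends were counted too. Of 24 PAU genes, which encode small wall mannoproteins made at low oxygen, 23 rose and none fell, 21 past 2-fold, with a median of 2.01. Their summed level was 151 to 184 CPM in H4-S47D libraries and 34.7 to 56.9 CPM in WT libraries, low for 24 genes together. In the lowest expression bin 46.4% of genes were higher and 4.35% lower, under the limits given for that bin. The part of low expression in the counts near the ends and in PAU genes was not tested. Of 12 COS genes 11 rose, and of 6 AAD genes, which resemble aryl alcohol dehydrogenases, all 6 rose. AAD4 averaged 150 ± 16.3 CPM in H4-S47D cells and 27.5 ± 1.5 CPM in WT cells (2.45, SE 0.08). The members of these families are close copies, so the split of reads among them is uncertain. Of the silencing genes, SIR3, a subunit of the silencing complex at chromosome ends, was at 0.41 with overlapping ranges (adjusted p = 0.0267), and that call was lost without any one of 4 libraries (H4-S47D replicates 1 and 3, WT replicates 2 and 3) and in the fits to the 6 libraries.

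**Figure D5:**
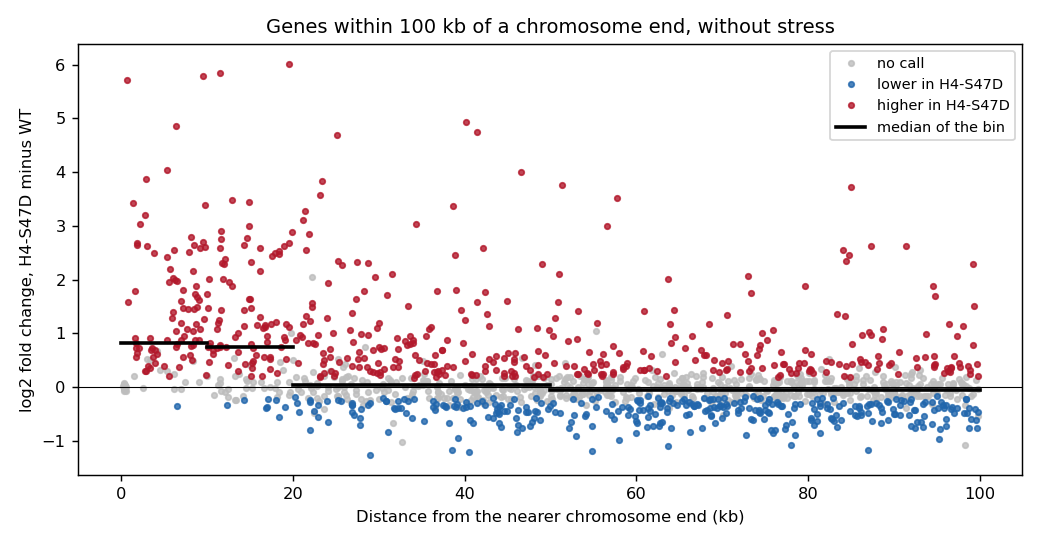
Each point is a gene tested within 100 kb of a chromosome end, with its distance from that end in kb and its log2 fold change of H4-S47D minus WT without stress, coloured by its call. Black lines mark the median of each distance bin, 0.82 under 10 kb and 0.74 from 10 to 20 kb.

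The other lists are given by their counts. Higher and lower members numbered 13 and 7 of 33 antioxidant genes, 10 and 4 of 19 phosphate genes, 15 and 6 of 30 iron and copper genes, 9 and 7 of 25 ergosterol genes, and 5 and 3 of 17 cyclin genes, beside 26.6% and 25.3% of all genes. Ergosterol genes called higher fell to 5 without H4-S47D replicate 1 or 2 and ran from 1 to 12 over the alternatives, those called lower ran from 1 to 10, and cyclin genes called higher ran from 2 to 8. Antioxidant genes called lower ran from 3 to 9. Of 22 autophagy genes 14 rose (6 to 15 over the alternatives) and none fell, with a median of 0.41. Of 373 genes tested that the reference annotation does not hold, 126 were higher and 14 lower, with a median of 0.54.

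Among the 15 largest falls past 2-fold, at a mean of at least 50 counts and with no overlap, were genes of several functions. SSP120, a secretory protein gene (chrXII:640317-641021, plus strand), was at 25.1, 20.2 and 22.8 CPM in H4-S47D cells, against 70.7, 76.9 and 69.3 CPM in WT cells (-1.67, SE 0.08, adjusted p = 9.58e-17). KEI1, needed for inositol phosphorylceramide synthesis, was at 15.0, 16.7 and 11.4 CPM in H4-S47D cells, against 45.3, 39.1 and 50.5 CPM in WT cells (-1.64, SE 0.15), and ATO3, a putative ammonium exporter, at 111, 115 and 102 CPM in H4-S47D cells, against 283, 305 and 307 CPM in WT cells (-1.45, SE 0.07). THO1, a nuclear RNA-binding protein, and POP2, a subunit of the CCR4-NOT deadenylase, fell by 1.25 (SE 0.08) and 1.10 (SE 0.08). That every H4-S47D library was under every WT library in these 5 genes was a condition of their choice, not a further result.

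The unstressed pattern was set beside the heat response of another strain, H4-T30A. Its libraries are in neither group compared, though they share the filter, the scaling and the estimate of spread of the fit. Of 928 genes that 10 min at 39°C induced by over 2-fold in H4-T30A cells, 613 were higher in unstressed H4-S47D than in WT cells and 38 lower (median 0.51), and of 933 heat-repressed genes 31 were higher and 631 lower (median -0.39). Among the 4348 other genes 1010 were higher and 902 lower (median 0.01). The ribosomal protein share of counts was 16.5 to 17.3% in unstressed H4-S47D libraries, beside 3.99 to 4.29% in heat-stressed H4-T30A libraries.

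Set against unstressed H4-T30A cells in place of WT cells, H4-S47D cells had 1613 higher genes (26.0%) and 1508 lower genes (24.3%). Both comparisons use the same H4-S47D libraries. HSP12 was then at 3.63, HXT4 at 3.57, SER3 at 3.81, SSP120 at -1.74 and RRS1 at -0.86 on the log2 scale, beside 3.23, 3.47, 3.01, -1.67 and -0.91 against WT. In that comparison 39 of the 42 general stress genes were higher and none lower, and 120 of the 132 ribosomal protein genes were lower and 1 higher. Values of the other phosphomimetic strain, H4-T30D, against the shared WT libraries were 0.99 for HSP12, 0.79 for HXT4, 1.93 for SER3, -0.52 for SSP120 and -0.37 for RRS1.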

How the data were processed

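Poly(A) libraries (stranded kit, 50 bp single-end reads) were mapped by the authors with TopHat2 2.1.0 to sacCer3, and uniquely mapping reads were counted per gene of the Ensembl R64-1-1 annotation with featureCounts 1.5.1. The deposited counts are not normalized, and the strand setting of the counting is not given in the sources used here. The authors' own tests used DESeq2 1.14.1.

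The counts were analysed with edgeR 4.0.16 in R 4.3.3, with filterByExpr (minimum count 10), TMM scaling, 1 mean per group over 27 libraries and the quasi-likelihood test of H4-S47D minus WT without stress. p-values were adjusted by Benjamini-Hochberg over 6209 genes, and 537 genes were not tested. Heat-responsive genes of H4-T30A came from edgeR's glmTreat at a limit of 1 on the log2 scale.

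The gene lists and the comparison were chosen with earlier results of these data known. Named genes were all marker, histone and study genes, the 15 largest called changes each way past 2-fold (50 or more counts on average, ranges not overlapping), and up to 3 called members per list and direction. BAR1 and NDT80 come from the marker lists and were added outside that rule after their values were seen. The reference was RefSeq's R64 annotation, matched by locus tag for 6025 identifiers and by symbol for 31, with 690 unmatched. Alternatives were other scalings and filters, a robust fit, a replicate block, a fit to the 6 libraries, each library left out in turn, and DESeq2 1.42.0.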

Additional observations from a re-analysis of the deposited data

How the results depend on the processing

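Leaving out 1 library at a time gave 1461 to 1638 higher genes, 1399 to 1618 lower genes, 464 to 515 over 2-fold higher and 38 to 52 over 2-fold lower. Library totals gave 670 lower genes and 20 over 2-fold lower, and edgeR on the 6 libraries gave 922 lower genes. The stricter glmTreat test against a log2 change of 1 left 256 genes higher and 7 lower. The other planned settings kept each count within 1.5 times of the reported one, from 1124 to 2323 higher genes. The replicate block on all libraries gave 1648 higher, 1573 lower, 486 over 2-fold higher and 40 over 2-fold lower genes. Deviations of same-numbered libraries correlated at 0.089, -0.117 and -0.405, and those of differently numbered libraries at -0.325 to 0.409. No pairing by number was seen. With 3 libraries a group these values depend on each other and cannot show whether same-numbered libraries shared a preparation. A replicate block on the 6 libraries, an alternative chosen after seeing the data, gave 931 higher and 596 lower genes. Across the named genes no call changed direction under any alternative; 207 gene-by-alternative values lost the call and 11 gained it. Of the list counts 843 stayed within 1.5 times of the reported value and 92 moved further. The causes were not tested. With 3 libraries a group, changes of the size of CLA4 or HTZ1 sit at the limit of what this depth and spread resolve.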
